A study of Sus scrofa with 15 samples.

Results

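The diet with dry olive pulp (DOP) was compared with the control diet (C) in subcutaneous backfat of Iberian pigs. The comparison rests on 10 of the 15 libraries of the series, 5 of DOP and 5 of C, each taken by the diet in its label and each from 1 pig. The samples were lumbar backfat biopsies of growing Iberian pigs, picked for sequencing by the quantity and quality of their RNA. The C pigs ate a compound feed of cereals, soybean meal and animal fat, and the DOP pigs ate a compound feed built on dried olive pulp, the residue left after olive oil extraction. Both feeds were restricted, to a larger share of voluntary energy intake in C than in DOP, but the mean weight of feed eaten per day was higher in DOP. Each diet was fed in 1 pen, so diet, feeding level and pen cannot be told apart. The third diet of the series (WCOC, olive cake silage with a compound feed) gave 5 more libraries, which stayed in the fit to estimate the spread. The labels give no sex.

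Backfat is made of adipocytes, which store triglyceride, and of the vessels, nerves, fibroblasts and immune cells between them. The macrophages of fat include a lipid-associated state that takes up lipid from dying adipocytes through scavenger and lectin receptors, degrades it in lysosomes and secretes osteopontin (SPP1). Some macrophages fuse into multinucleate giant cells with proteins they share with the osteoclasts of bone. Adipocytes also make fatty acids and cholesterol, the latter under the control of the sterol-sensing factor SREBF2.

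Each file held raw read counts for 30477 Ensembl genes, and 14918 genes with enough reads in the 15 libraries were tested. The counts on genes ran from 22373715 to 32266457 per C library and from 24601925 to 34745218 per DOP library. Levels are given as CPM, the counts as a rate per library size after scaling between libraries, and a difference between diets as log2FC, the log2 of the fold change of DOP over C, with its standard error (SE). Differentially expressed genes (DEGs) were those that passed an adjusted p of 0.05 in edgeR's quasi-likelihood test and whose log2FC reached 0.58 in either direction. Libraries are named by diet and replicate number, such as C 3, and the numbers do not pair pigs. The run identifier in the names of the deposited files was the same for all 5 DOP libraries and C 5, and another for C 1 to C 4 and all WCOC libraries. Counts of the Y-linked genes EIF1AY and KDM5D together were 0 to 6 in C 4, C 5 and DOP 5 and 872 to 1591 in the other 7 libraries. The defining genes of fat were high in every library, with 3087 to 4128 CPM of adiponectin (ADIPOQ) in C and 4432 to 6756 CPM in DOP.

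With these limits, 114 of the 14918 tested genes (0.764%) were DEGs, 32 higher in DOP (0.215%) and 82 lower (0.55%). Their adjusted p ran from 0.0268 to 0.0490, so that every one lay near the threshold. The 32 rises were mostly moderate, with log2FC from 0.59 to 3.82 and a median of 0.90, and in 30 of them the C and DOP libraries did not overlap. The 82 falls were larger, from 0.63 to 5.24 in size with a median of −2.20, and in 58 of them the diets did not overlap. Over all tested genes, 517 (3.47%, 1.7% higher and 1.76% lower in DOP) had values that did not overlap, 2623 (17.6%, 9.6% higher and 7.98% lower) had an unadjusted p under 0.05, and the median log2FC was 0.01.

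The falls and the rises differed in how the libraries spread. Among the 82 falls the median coefficient of variation was 65.3% in C and 35.1% in DOP, whereas among the 32 rises it was 19.1% and 20.5%. C 5 was the highest control in 62 of the 82 falls, and C 3 and C 5 were the top controls together in 65. At the other end, C 1 was the lowest control in 62 and lay under 1.5 times the highest DOP library in 63. In DOP, replicate 1 was the highest of its diet in 54 of the falls and replicate 5 the lowest in 45. The controls thus covered a wide range for these genes, and C 1 was the control nearest to the DOP libraries.

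C 5 was the only control with the run identifier of the DOP libraries. Its values also went into the calling of the DEGs, and without it no gene was a DEG. Where it lies in these genes thus follows in part from their selection. C 5 lay below all DOP libraries in 31 of the 32 rises, and its median difference from the DOP mean over these genes was 0.86 on the log2 scale, against 0.86 for C 1 to C 4. It lay above all DOP libraries in each of the 82 falls, with a median difference of −2.93 against −1.67 for C 1 to C 4. With the run identifier as a covariate, DOP is in effect set against C 5 alone, since no other control shares its run identifier. The median log2FC in that fit was 0.89 for the 32 rises and −2.97 for the 82 falls. These values restate where C 5 lies and, with 1 control, are no further test of the direction.

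Skeletal muscle transcripts were read first, since backfat lies over the muscles of the back and fuel-use genes are highly expressed there. The skeletal muscle fibre list (contractile, sarcomeric and calcium-handling proteins) summed to 3384, 122, 6390, 447 and 186 CPM in C 1 to C 5. In DOP 1 to DOP 5 it summed to 111, 17859, 418, 10068 and 74121 CPM. DOP 2, DOP 4 and DOP 5 were thus above every control, DOP 5 by the most, and C 1 and C 3 were the highest controls, whereas DOP 3 was within the range of the controls and DOP 1 just below the lowest of them. Skeletal actin (ACTA1), the most abundant tested member, stood at 1357, 14.9, 1883, 108 and 37.5 CPM in C 1 to C 5. Its level was 12.6, 6543, 112, 3238 and 23994 CPM in DOP 1 to DOP 5. None of the 25 tested members (of 35 listed and 26 matched) was a DEG, and their median log2FC was 3.17. Of the 25, 10 had an unadjusted p under 0.05 with a higher value in DOP, against 9.6% of all genes. Without DOP 2, DOP 4 and DOP 5 the median log2FC of the list was −3.23. These libraries were left out for their high sums of this list, and C 1 and C 3 were kept. The direction of this value thus follows from the choice.

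**Figure D1:**
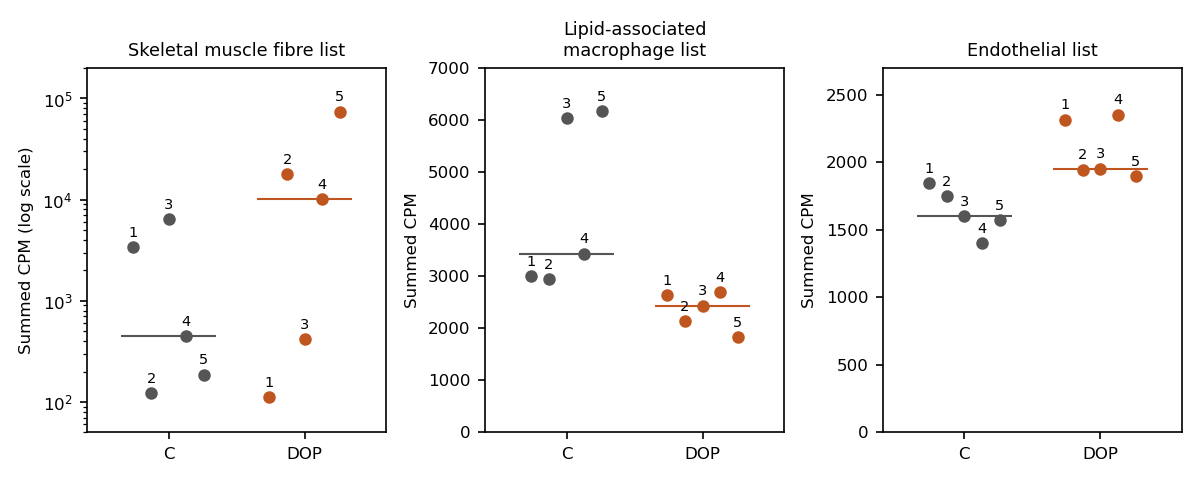
Summed CPM of the tested members of 3 gene lists in each C and DOP library, on a log axis for skeletal muscle and linear axes from 0 for the other lists. Points are libraries with their replicate numbers and lines are medians. The muscle sum spans 122 to 6390 CPM in C and 111 to 74121 CPM in DOP, the lipid-associated macrophage sum is at least 2946 CPM in C and at most 2694 CPM in DOP, and the endothelial sum is at most 1848 CPM in C and at least 1899 CPM in DOP.

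The lists that fell held genes of lipid-laden macrophages. All lists were written with earlier results of these data known, so a share of DEGs in a list only describes its members. In the lipid-associated macrophage list 7 of the 15 tested members were DEGs lower in DOP, against 0.55% of all genes, and 13 had an unadjusted p under 0.05 in that direction, against 7.98%. Their median log2FC was −1.78. The summed level of the list did not overlap between the diets, at 2946 to 6167 CPM in C and 1830 to 2694 CPM in DOP. The sums of the related lists did overlap. They were 148 to 309 CPM in C and 129 to 159 CPM in DOP for osteoclast-like giant cells. For phagocytic receptors and integrins they were 428 to 1068 CPM and 297 to 522 CPM, and for general macrophage markers 390 to 1018 CPM and 260 to 648 CPM. In whole tissue, fewer macrophages and less RNA of these genes per macrophage cannot be told apart.

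SPP1 (ENSSSCG00000009216, chromosome 8, 131077786 to 131085334) encodes osteopontin, a secreted glycoprotein of activated macrophages and osteoclasts, and had the largest fall of all DEGs. Its level was 45.9, 82.5, 483, 105 and 746 CPM in C 1 to C 5. The DOP libraries had 12.9, 4.08, 8.15, 11.2 and 2.44 CPM. The lowest control was thus above the highest DOP library, and C 3 and C 5 stood well above the other controls. The log2FC was −5.24 (SE 0.84, adjusted p = 0.0277), from a mean of 292 ± 309 CPM in C to 7.75 ± 4.48 CPM in DOP (SD, n = 5 each).

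The receptors of the same list fell too. CLEC7A (ENSSSCG00000000648), the lectin dectin-1 that binds beta-glucan, stood at 0.981, 1.71, 5.03, 3.12 and 14.3 CPM in C 1 to C 5. Its DOP values were 0.683, 0.340, 0.278, 0.0751 and 0.209 CPM, all below the lowest control (log2FC −3.99, SE 0.73, adjusted p = 0.0277). The scavenger receptor MSR1, which takes up modified lipoprotein, stood at 9.42, 23.3, 59.7, 20.996 and 107 CPM in C and at 9.36, 3.89, 4.23, 5.07 and 1.92 CPM in DOP. DOP 1 lay just below C 1, and the log2FC was −3.18 (SE 0.65, adjusted p = 0.0397). The receptor for oxidised low-density lipoprotein, OLR1, had a log2FC of −2.81 (SE 0.57, adjusted p = 0.0382) with overlapping diets, since DOP 1 (4.26 CPM) exceeded C 1 (3.14 CPM).

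Among the further members, GPNMB, a membrane glycoprotein of lipid-laden macrophages, went from 152 ± 106 CPM in C to 24.5 ± 13.1 CPM in DOP (log2FC −2.64, adjusted p = 0.0277). The beta-galactoside-binding lectin LGALS3 went from 190.0 ± 130 to 36.6 ± 16.8 CPM (log2FC −2.38, adjusted p = 0.0367). TREM2, the lipid-sensing receptor that defines the state, just missed the threshold (log2FC −2.74, SE 0.62, adjusted p = 0.0507). It stood at 1.67, 2.22, 8.22, 3.08 and 10.2 CPM in C and at 1.57, 0.453, 0.741, 0.826 and 0.244 CPM in DOP, so the diets did not overlap.

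**Figure D2:**
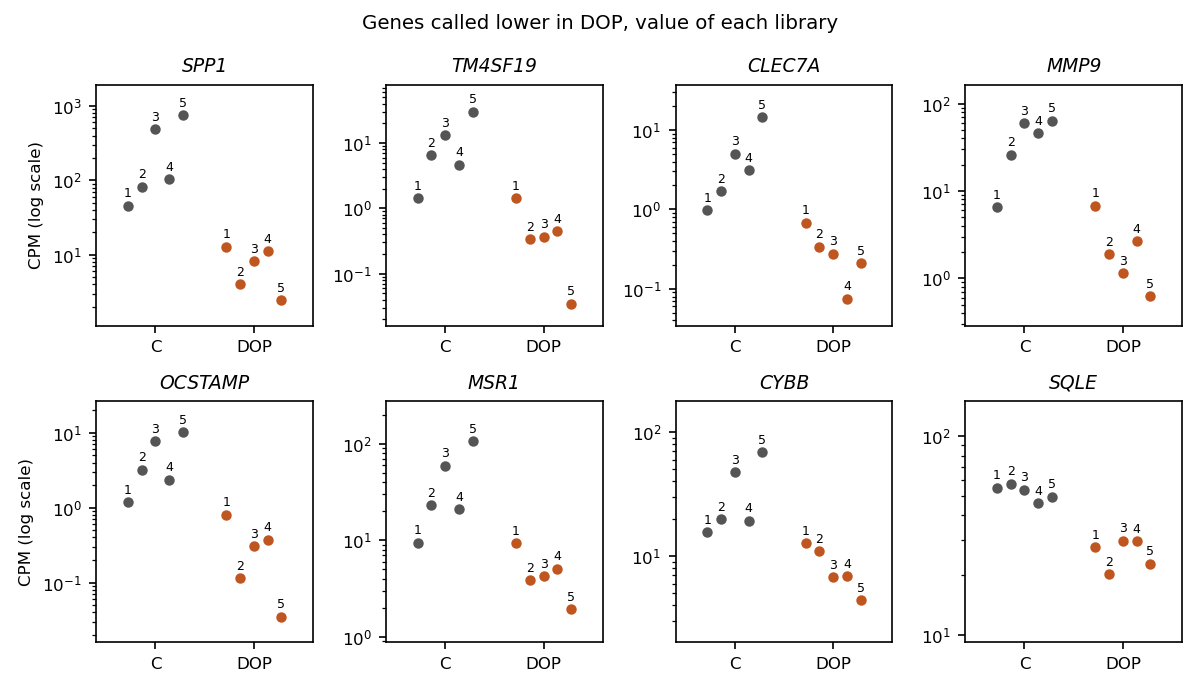
CPM of 8 genes called lower in DOP in each C and DOP library, on log axes, with replicate numbers above the points. C 3 and C 5 are the highest controls for SPP1, TM4SF19, CLEC7A, OCSTAMP, MSR1 and CYBB, whereas the 5 controls of SQLE lie between 46.1 and 57.9 CPM.

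Genes of macrophage fusion fell in the same libraries. In the osteoclast-like giant cell list 5 of the 10 tested members were DEGs, all lower in DOP, against 0.55% of all genes. The median log2FC over the 10 was −1.19. OCSTAMP and DCSTAMP are transmembrane proteins required for the fusion of osteoclasts and giant cells. OCSTAMP stood at 1.18, 3.204, 7.68, 2.38 and 10.2 CPM in C 1 to C 5 and at 0.803, 0.113, 0.309, 0.376 and 0.0349 CPM in DOP 1 to DOP 5 (log2FC −3.92, SE 0.78, adjusted p = 0.0367). No DOP library reached the lowest control. DCSTAMP had a log2FC of −3.86 (SE 0.83, adjusted p = 0.0452), but C 1 (0.638 CPM) was below DOP 1 (1.61 CPM). TM4SF19, a transmembrane protein of osteoclasts and lipid-laden macrophages, had the second largest fall among the named genes (log2FC −4.42, SE 0.81, adjusted p = 0.0277), with C 1 (1.42 CPM) and DOP 1 (1.45 CPM) at the same level.

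MMP9 (ENSSSCG00000007436, chromosome 17, 48179690 to 48186782), a gelatinase that cuts collagen IV and other matrix, stood at 6.47, 26.1, 59.8, 45.7 and 63.5 CPM in C 1 to C 5. The DOP values were 6.79, 1.89, 1.14, 2.67 and 0.628 CPM. C 1 and DOP 1 were again level and the other libraries separated (log2FC −3.96, SE 0.78, adjusted p = 0.0367). TCIRG1, a subunit of the proton pump that acidifies lysosomes and the osteoclast border, fell by 1.07 on the log2 scale (SE 0.24, adjusted p = 0.0484). Another subunit of this pump, ATP6V0D2, had too few reads to be tested, with 5, 18, 65, 13 and 59 counts in C 1 to C 5 and 0, 2, 4, 1 and 0 counts in DOP. The list member RANK (TNFRSF11A), the receptor that starts osteoclast formation, was at the same level in both diets (50.3 ± 6.64 CPM in C, 49.1 ± 3.01 CPM in DOP, log2FC −0.03).

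Further phagocyte genes fell in the same libraries. In the phagocytic receptor and integrin list 4 of the 18 tested members were DEGs, all lower in DOP, against 0.55% of all genes. An unadjusted p under 0.05 was found for 14 of the 18, all lower, against 7.98%, and the median log2FC was −1.41. ITGB2 (ENSSSCG00000025133), the beta chain of the leukocyte integrins, stood at 28.3, 38.6, 94.5, 40.8 and 104 CPM in C 1 to C 5. It was lower in DOP, with 22.8, 25.4, 10.9, 13.3 and 9.13 CPM. All DOP libraries lay below all controls (log2FC −1.91, SE 0.40, adjusted p = 0.0421). Its partner ITGAM had a log2FC of −1.41 (adjusted p = 0.0780), and CLEC5A, an activating lectin of myeloid cells, fell with a log2FC of −3.81 (adjusted p = 0.0300) and overlapping diets. The most abundant member, the scavenger receptor STAB1 of resident macrophages and sinusoidal endothelium, had a log2FC of 0.12 (adjusted p = 0.795).

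The NADPH oxidase makes superoxide in phagocytes. CYBB, its catalytic subunit, stood at 15.5, 19.8, 47.3, 19.2 and 68.4 CPM in C 1 to C 5 and at 12.8, 10.98, 6.76, 6.87 and 4.43 CPM in DOP 1 to DOP 5. The diets did not overlap (log2FC −2.03, SE 0.43, adjusted p = 0.0452). It was the only DEG among 11 tested members, whose median log2FC was −0.18. Of the 11, 3 had an unadjusted p under 0.05, all lower in DOP, against 7.98% of all genes. RAC1, the most abundant member and a GTPase of many other processes, had a log2FC of −0.07.

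Of 15 tested toll-like receptor genes, TLR9, the sensor of unmethylated DNA in endosomes, was the DEG, with 1.39 ± 0.652 CPM in C and 0.427 ± 0.166 CPM in DOP (log2FC −1.72, SE 0.37, adjusted p = 0.0452). The RNA sensor TLR8 had a log2FC of −1.89 (adjusted p = 0.0944), and TLR7, the most abundant of the list, −0.12 (adjusted p = 0.446). Of the 15, 5 had an unadjusted p under 0.05, all lower in DOP, against 7.98% of all genes. All 15 had a log2FC below 0, with a median of −0.20. Among 14 tested complement genes 2 were DEGs lower in DOP, against 0.55% of all genes. No further member had an unadjusted p under 0.05, and the median log2FC was −0.29. The 2 were C3, the central component, and CLU, an inhibitor of the terminal complex. C3 stood at 19.3, 17.5, 42.3, 16.1 and 43.4 CPM in C and at 14.8, 9.36, 9.26, 7.29 and 6.31 CPM in DOP, with no overlap (log2FC −1.56, SE 0.32, adjusted p = 0.0421). CLU went from 103 ± 68.9 to 31.3 ± 7.99 CPM (log2FC −1.72, SE 0.38, adjusted p = 0.0484).

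Lysosomal genes shifted less. Of 38 tested members 3 were DEGs, all lower, against 0.55% of all genes. Another 17, counted with these 3, had an unadjusted p under 0.05, all lower, against 7.98%, and the median log2FC was −0.28. The cathepsin CTSS, a protease of antigen-presenting cells, fell by 1.78 on the log2 scale (SE 0.35, adjusted p = 0.0367), and GLA, the alpha-galactosidase of glycolipid breakdown, by 0.71 (SE 0.15, adjusted p = 0.0424). The abundant cathepsins did not pass: CTSD had a log2FC of −0.90 (adjusted p = 0.0582) and CTSB −1.09 (adjusted p = 0.0567).

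General macrophage markers were not DEGs. None of the 18 tested members passed, and the median log2FC was −0.72. Of them 9 had an unadjusted p under 0.05, all lower, against 7.98% of all genes. CSF1R, the receptor for the macrophage growth factor and the most abundant member, stood at 122, 91.0, 198, 99.4 and 243 CPM in C 1 to C 5 and at 133, 108, 77.5, 89.6 and 53.3 CPM in DOP 1 to DOP 5. The diets overlapped broadly (log2FC −0.71, adjusted p = 0.279). The 9 tested T cell genes had a median log2FC of 0.07 and no DEG, and the 4 tested neutrophil genes had no DEG, with a median of −0.38. None of the 7 tested B and plasma cell genes was a DEG (median 0.32).

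Other large falls lay outside the lists, although most varied over the controls as the macrophage genes did. TREH, the trehalose-splitting enzyme, stood at 3.19, 15.8, 24.2, 29.9 and 103 CPM in C 1 to C 5 and at 2.09, 0.830, 3.09, 2.03 and 0.628 CPM in DOP 1 to DOP 5 (log2FC −4.34, SE 0.94, adjusted p = 0.0452). C 1 was just above DOP 3. C1QL2, a secreted protein with a C1q domain, had a log2FC of −4.01 (adjusted p = 0.0300) and NYAP2, an adaptor of phosphoinositide 3-kinase, −3.97 (adjusted p = 0.0277). PADI2, which converts arginine to citrulline in proteins, had a log2FC of −3.41 (44.2 ± 34.4 CPM in C, 4.16 ± 1.94 CPM in DOP, adjusted p = 0.0277). SLC11A1, the metal transporter of the phagosome membrane, fell with −3.09 and the membrane serine protease ST14 with −3.00 (adjusted p = 0.0277 for both). None of these 6 genes had overlapping diets, which the rule that named them required.

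**Figure D3:**
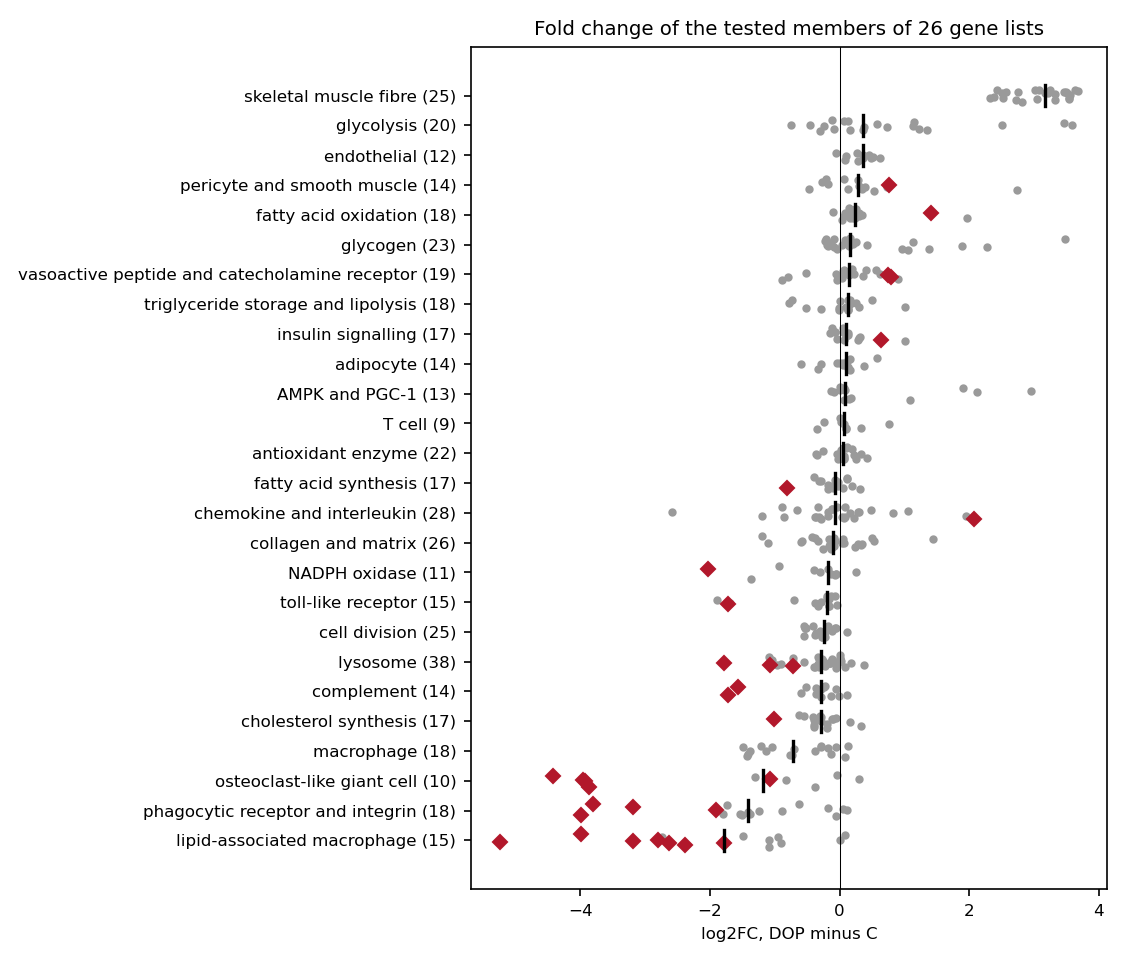
The log2FC (DOP minus C) of each tested member of 26 gene lists, with the number of tested members in brackets and lists ordered by their median (black bars). Diamonds are DEGs and dots are other tested genes. The lowest medians are those of the lipid-associated macrophage (−1.78), phagocytic receptor and integrin (−1.41) and osteoclast-like giant cell (−1.19) lists, and the skeletal muscle fibre list has the highest (3.17) with no DEG.

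Lipid synthesis showed a few falls of another kind, with tight values in both diets. SQLE (ENSSSCG00000005970, chromosome 4, 14669789 to 14700152), squalene epoxidase, catalyses a rate-controlling step of cholesterol synthesis. It stood at 55.2, 57.9, 53.9, 46.1 and 49.7 CPM in C 1 to C 5 and at 27.8, 20.2, 29.9, 29.6 and 22.9 CPM in DOP 1 to DOP 5. The lowest control was well above the highest DOP library, and neither C 3 nor C 5 stood out. The log2FC was −1.01 (SE 0.15, adjusted p = 0.0268), a ratio of means of 0.496.

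SQLE was the DEG among 17 tested genes of cholesterol synthesis, whose median log2FC was −0.29. Of these, 9 had an unadjusted p under 0.05, all lower, against 7.98% of all genes. HMGCS1, which makes the precursor of mevalonate, had a log2FC of −0.63 (134 ± 12.8 CPM in C, 86.6 ± 10.8 CPM in DOP, adjusted p = 0.0898) and no overlap. IDI1, the most abundant member, ranged from 168 to 467 CPM in C and from 199.8 to 285 CPM in DOP (log2FC −0.39, adjusted p = 0.637). Among 17 tested genes of fatty acid synthesis 2 had an unadjusted p under 0.05, all lower, against 7.98% of all genes. The DEG among them was MID1IP1, an activator of acetyl-CoA carboxylase. It stood at 248, 194, 260, 277 and 195 CPM in C and at 160, 135, 112, 130 and 129 CPM in DOP, again with no overlap (log2FC −0.82, SE 0.18, adjusted p = 0.0452). SCD, the desaturase that makes oleic acid and the most abundant gene of the list, was level at 38686 ± 7404 CPM in C and 40071 ± 5452 CPM in DOP (log2FC 0.05). LIPG, an endothelial lipase that acts on lipoprotein phospholipids, went from 35.1 ± 6.01 to 9.72 ± 2.65 CPM (log2FC −1.85, SE 0.40, adjusted p = 0.0452) with no overlap.

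The sequences before the start of genes that moved are given for a protease and an integrin that fell and for the largest rise. Each runs from 250 bases before to 50 bases after the gene start in the RefSeq annotation of Sscrofa11.1, the build of the deposited counts, 5′ to 3′ on the strand of the gene. Capitals mark matches on either strand to TGANTCA (an AP-1 site, which reads the same on both strands) or GAGGAA (the core bound by the myeloid factor PU.1), and these motifs do not overlap each other here. A match is only a description of the letters.
MMP9 promoter, chr17:48179440-48179739, plus strand: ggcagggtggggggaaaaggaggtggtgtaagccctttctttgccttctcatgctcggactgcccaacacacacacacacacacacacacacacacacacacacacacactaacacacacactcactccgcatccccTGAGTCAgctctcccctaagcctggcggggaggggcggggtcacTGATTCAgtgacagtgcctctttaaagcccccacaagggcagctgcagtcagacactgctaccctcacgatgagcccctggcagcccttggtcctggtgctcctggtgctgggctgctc
ITGB2 promoter, chr13:207544059-207544358, minus strand: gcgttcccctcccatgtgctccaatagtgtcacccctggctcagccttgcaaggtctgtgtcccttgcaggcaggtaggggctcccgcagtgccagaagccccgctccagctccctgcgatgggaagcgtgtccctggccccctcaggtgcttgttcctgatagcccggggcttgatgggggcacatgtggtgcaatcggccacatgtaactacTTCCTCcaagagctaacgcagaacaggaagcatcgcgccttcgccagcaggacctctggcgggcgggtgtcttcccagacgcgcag
PRND promoter, chr17:13729465-13729764, plus strand: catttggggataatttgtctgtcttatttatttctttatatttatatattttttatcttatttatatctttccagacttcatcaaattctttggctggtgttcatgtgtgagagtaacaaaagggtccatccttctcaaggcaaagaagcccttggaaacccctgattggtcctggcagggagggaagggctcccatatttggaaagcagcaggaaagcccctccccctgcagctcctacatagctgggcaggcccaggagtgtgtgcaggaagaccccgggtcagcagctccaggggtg
The MMP9 sequence held 2 AP-1 matches and that of ITGB2 held 1 PU.1 core on the opposite strand. The PRND sequence held neither motif. Over the promoters of all 19506 protein-coding genes read the same way, 6.04% held the AP-1 motif and 25.9% the PU.1 core. Of 63 promoters of genes that fell, 7.94% and 25.4% held them, which is 5 and 16 promoters, and of 25 promoters of genes that rose 0% and 28.0%. Another motif, the sterol response element TCACNCCAC, was in 0.918% of all promoters, in 3 of the 63 (4.76%) and in 1 of the 25 (4.0%).

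The rises were led by PRND (ENSSSCG00000032923, chromosome 17, 13729715 to 13735485). It encodes doppel, a membrane-anchored relative of the prion protein. Its level was 0.245, 0.384, 0.350, 0.0779 and 0.0331 CPM in C 1 to C 5, or 1 to 11 counts. In DOP 1 to DOP 5 it was 4.82, 4.15, 1.27, 1.61 and 3.70 CPM, or 41 to 120 counts. Every DOP library was above every control, and C 5, which shared the run identifier of DOP, was the lowest. The log2FC was 3.82 (SE 0.58, adjusted p = 0.0268), and without DOP 2, DOP 4 and DOP 5 it was 3.78. The WCOC libraries, at 0.260 ± 0.176 CPM, were at the level of C. The neighbouring PRNP could not be tested, since no C or DOP library had more than 6 counts.

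IL13RA2 (ENSSSCG00000012594, chromosome X, 94402665 to 94455609) is the decoy receptor for interleukin 13, which binds the cytokine without passing on its signal. Its level was 5.30, 4.14, 1.94, 3.08 and 2.92 CPM in C 1 to C 5 and 11.3, 12.8, 21.98, 16.2 and 10.3 CPM in DOP 1 to DOP 5. The lowest DOP library had nearly double the level of the highest control (log2FC 2.07, SE 0.28, adjusted p = 0.0268). Of all DEGs named here it was called most often with a library left out, in 6 of 10 fits. It was the DEG among 28 tested chemokine and interleukin genes, whose median log2FC was −0.08, and WCOC stood at 4.98 ± 1.24 CPM. Of the 28, 4 had an unadjusted p under 0.05 with higher values in DOP, against 9.6% of all genes. With lower values there were 3, against 7.98%.

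Smaller rises came with tight values. KLKB1, plasma prekallikrein, stood at 2.01, 1.97, 1.15, 1.99 and 1.99 CPM in C and at 4.499, 5.47, 5.62, 3.23 and 3.80 CPM in DOP (log2FC 1.32, SE 0.26, adjusted p = 0.0351). SLITRK6, a synaptic membrane protein, doubled from 9.03 ± 2.59 to 18.2 ± 3.58 CPM (log2FC 1.01, adjusted p = 0.0277). NUP62CL, a nucleoporin-like protein, had a log2FC of 1.07 (adjusted p = 0.0277), and the deubiquitinase USP43 one of 0.91 (adjusted p = 0.0367). CA4, a carbonic anhydrase on the surface of capillary endothelium, stood at 3.25 to 4.17 CPM in C and 6.39 to 8.30 CPM in DOP (log2FC 0.94, adjusted p = 0.0422). FAXDC2, a hydroxylase-domain protein of sterol metabolism, had a log2FC of 0.88 (adjusted p = 0.0277). ADAMTS7, a secreted metalloprotease of the vessel wall, had 18.004 ± 4.69 CPM in C and 31.3 ± 2.12 CPM in DOP (log2FC 0.80, SE 0.14, adjusted p = 0.0277). All 7 had no overlap between the diets, which the rule that named them required, and none belonged to a macrophage or muscle list.

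An endothelin and an angiotensin II receptor rose. In the vasoactive peptide and catecholamine receptor list 2 of the 19 tested members were DEGs higher in DOP, against 0.215% of all genes. An unadjusted p under 0.05 in that direction was found for 8, against 9.6%, and the median log2FC was 0.15. Another 2 had an unadjusted p under 0.05 with lower values in DOP, and the thromboxane receptor TBXA2R, 1 of the 5 members with a log2FC below 0, was lower with no overlap (log2FC −0.89, adjusted p = 0.0998). EDNRB, the endothelin receptor B of endothelium and nerve, stood at 19.3, 22.2, 15.8, 15.1 and 18.5 CPM in C 1 to C 5 and at 31.2, 28.5, 31.6, 38.2 and 28.2 CPM in DOP 1 to DOP 5 (log2FC 0.80, SE 0.16, adjusted p = 0.0379). AGTR1, the main receptor for angiotensin II, stood at 24.0, 36.7, 30.6, 23.4 and 29.5 CPM in C and at 44.5, 68.1, 40.99, 49.99 and 37.5 CPM in DOP (log2FC 0.74, SE 0.16, adjusted p = 0.0452). Neither gene overlapped, although DOP 5 came close to C 2 for AGTR1. The most abundant member, angiotensinogen (AGT), did not differ beyond its spread (log2FC 0.06, SE 0.39, adjusted p = 0.959), and DOP and C overlapped.

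In the pericyte and endothelial lists 1 gene passed the threshold. KCNJ8, the pore of the potassium channel of pericytes that closes with ATP, was the DEG among 14 pericyte and smooth muscle genes. It stood at 21.4, 16.8, 16.2, 13.6 and 15.5 CPM in C and at 22.6, 27.7, 23.1, 32.3 and 36.9 CPM in DOP, with C 1 just below DOP 1 (log2FC 0.77, SE 0.15, adjusted p = 0.0367). Over all genes, 0.215% were DEGs higher in DOP. The median log2FC of the 14 was 0.29, with 10 members above 0 and 4 below. An unadjusted p under 0.05 was found for 5 of the 14, all higher in DOP, against 9.6% of all genes. The diets did not overlap for 4, all higher in DOP, against 1.7%. Desmin (DES), a member that skeletal muscle shares, stood at 903, 286 and 1490 CPM in DOP 2, DOP 4 and DOP 5 and at 5.22 and 12.04 CPM in DOP 1 and DOP 3.

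None of the 12 tested endothelial genes was a DEG, but 7 had an unadjusted p under 0.05 with higher values in DOP, against 9.6% of all genes, and their median log2FC was 0.36. PECAM1, the junction protein that marks endothelium, stood at 546, 513, 503, 481 and 521 CPM in C and at 776, 582, 624, 742 and 582 CPM in DOP, with no overlap (log2FC 0.37, SE 0.13, adjusted p = 0.158). CLDN5, a tight-junction protein, had the lowest p of the list (log2FC 0.62, SE 0.16, adjusted p = 0.0820). The summed endothelial level did not overlap either, at 1402 to 1848 CPM in C and 1899 to 2354 CPM in DOP. That of the pericyte and smooth muscle list did, at 1259 to 1586 CPM in C and 1422 to 3023 CPM in DOP. COL4A1, a basement membrane collagen that vessels and adipocytes lay down, had 1906 ± 274 CPM in C and 2753 ± 228 CPM in DOP (log2FC 0.53, SE 0.12, adjusted p = 0.0533).

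**Figure D4:**
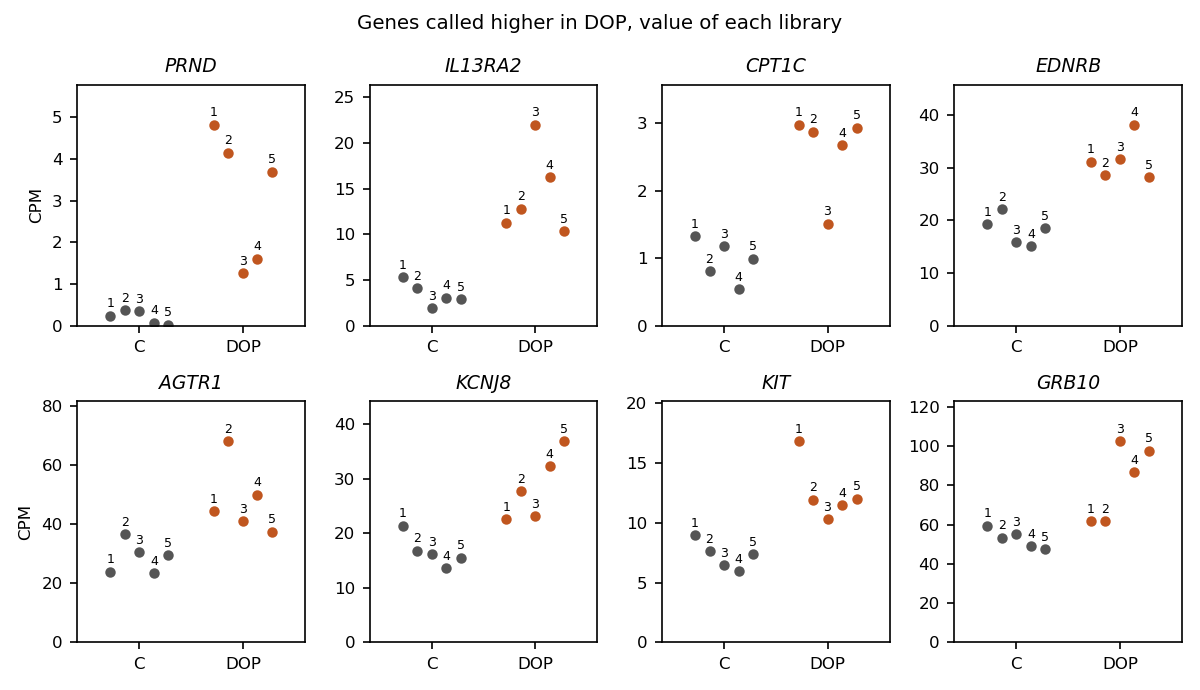
CPM of 8 genes called higher in DOP in each C and DOP library, on linear axes from 0, with replicate numbers above the points. The diets do not overlap for any of the 8. As a ratio of the lowest DOP to the highest C library, the gap is widest for PRND (at most 0.384 CPM in C, at least 1.27 CPM in DOP) and IL13RA2 (at most 5.30 CPM in C, at least 10.3 CPM in DOP).

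KIT, the receptor for stem cell factor on mast cells, rose with 8.98, 7.60, 6.43, 5.96 and 7.39 CPM in C and 16.8, 11.9, 10.3, 11.5 and 11.99 CPM in DOP (log2FC 0.78, SE 0.17, adjusted p = 0.0452). It was the DEG among 6 tested mast cell genes, of which 5 had a log2FC above 0, with a median of 0.50. An unadjusted p under 0.05 with higher values in DOP was found for 2 of the 6, against 9.6% of all genes. MS4A2, the most abundant of the 6, had a log2FC of 0.04. GRB10, an adaptor that damps the insulin receptor, stood at 59.4, 53.4, 55.3, 49.0 and 47.5 CPM in C and at 61.9, 61.9, 103, 86.6 and 97.7 CPM in DOP (log2FC 0.63, SE 0.14, adjusted p = 0.0484). C 1 was close to DOP 1 and DOP 2. It was the DEG among 17 insulin signalling genes, and AKT2, the most abundant, had a log2FC of 0.11. Of the 17, 3 had an unadjusted p under 0.05, all higher in DOP, against 9.6% of all genes.

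CPT1C, the brain form of carnitine palmitoyltransferase 1, was the DEG among 18 tested fatty acid oxidation genes. It stood at 1.32, 0.812, 1.18, 0.545 and 0.994 CPM in C 1 to C 5 and at 2.97, 2.87, 1.51, 2.67 and 2.93 CPM in DOP 1 to DOP 5 (log2FC 1.41, SE 0.31, adjusted p = 0.0473). DOP 3 was near C 1 and the other DOP libraries were far above. Counted with CPT1C, 6 of the 18 had an unadjusted p under 0.05 with higher values in DOP, against 9.6% of all genes. The share of DEGs higher in DOP was 0.215% over all genes, and the median log2FC of the list was 0.23. PDK4, the kinase that shuts pyruvate dehydrogenase in fasting, stood at 22.9, 21.9998, 15.2, 18.4 and 34.7 CPM in C and at 44.3, 99.2, 135, 80.6 and 83.1 CPM in DOP. The diets did not overlap, but the gene missed the threshold (log2FC 1.97, SE 0.46, adjusted p = 0.0582). Its log2FC was 1.99 without DOP 2, DOP 4 and DOP 5.

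In the lists of AMP-activated kinase, glycogen and glycolysis the summed muscle-enriched forms were highest in DOP 2, DOP 4 and DOP 5, and DOP 5 was also highest in the summed other members (18914 CPM for glycolysis, against at most 5503 CPM in C, and 3061 CPM for glycogen, against at most 1955 CPM). AMP-activated kinase senses low energy, and PPARGC1A is the coactivator that raises mitochondrial genes. None of the 13, 23 and 20 tested members of these lists was a DEG. The catalytic subunit PRKAA2, the form enriched in muscle, stood at 16.8, 14.4, 29.1, 15.5 and 12.1 CPM in C 1 to C 5. In DOP 1 to DOP 5 it stood at 11.4, 47.0, 11.4, 46.0 and 213 CPM (log2FC 1.90, SE 0.63, adjusted p = 0.148). The high values were in DOP 2, DOP 4 and DOP 5, the libraries high in muscle transcripts, and the log2FC without them was −0.63.

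The regulatory subunits followed. PRKAG3, which is largely particular to fast muscle, stood at 0.834, 0.256, 12.5, 1.01 and 0.298 CPM in C and at 0.201, 8.15, 0.432, 15.02 and 94.2 CPM in DOP (log2FC 2.95, adjusted p = 0.270), and its highest control was C 3, the control highest in muscle transcripts. PRKAB2 had a log2FC of 1.09 (adjusted p = 0.173) and −0.08 without the 3 libraries. PPARGC1A stood at 0.687, 0.641, 0.987, 0.818 and 0.431 CPM in C and at 0.201, 2.00, 0.710, 2.89 and 9.80 CPM in DOP (log2FC 2.12, adjusted p = 0.147), and at −0.61 on the log2 scale without them. With C 1 and C 3 left out as well, the log2FC was −0.13 for PRKAB2 and −0.43 for PPARGC1A. The upstream kinase STK11, the most abundant member of the list, stood at 103 ± 2.97 CPM in C and 108 ± 8.76 CPM in DOP.

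The muscle phosphorylase PYGM, which opens glycogen breakdown, ranged from 173 to 514 CPM in C and stood at 169, 707, 179, 768 and 4691 CPM in DOP 1 to DOP 5 (log2FC 2.27, adjusted p = 0.147). The muscle phosphofructokinase PFKM stood at 20.8, 118, 27.8, 135 and 984 CPM in DOP 1 to DOP 5, against 22.7 to 99.2 CPM in C (log2FC 2.51, adjusted p = 0.152). Both were high in the same 3 DOP libraries and had negative values without them (−0.63 and −0.89). With C 1 and C 3 left out as well, the values were −0.05 and −0.10. GAPDH, a glycolytic enzyme of every cell, had 9614 CPM in DOP 5 and 912 to 2217 CPM in the other DOP libraries (log2FC 1.13, adjusted p = 0.261). Over the 4 lists of fuel use, the 13 tested muscle-enriched isoforms had a median log2FC of 2.12 and no DEG. Of these 13, 10 had an unadjusted p under 0.05 with higher values in DOP and 1 with lower ones, and the fatty acid oxidation pair had a median of 0.21. The other members had medians of 0.06 (AMP-activated kinase and PPARGC1A), 0.11 (glycogen), 0.26 (glycolysis) and 0.23 (fatty acid oxidation). An unadjusted p under 0.05 with higher values in DOP was found for 0 of 9, 5 of 20, 4 of 16 and 6 of 16 of them, against 9.6% of all genes. The part of muscle tissue in these values was not tested.

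Several single genes showed the same libraries. EGF stood at 1.93, 22.8, 1.85, 23.9 and 119 CPM in DOP 1 to DOP 5 (log2FC 2.83, adjusted p = 0.151) and the myosin-binding MYBPH at 0.884, 35.8, 1.36, 31.9 and 225 CPM (log2FC 3.81, adjusted p = 0.141). The insulin receptor substrate IRS1 stood at 24.1, 32.7, 19.8, 33.9 and 107 CPM in DOP and 20.7 to 23.3 CPM in C (log2FC 1.01, adjusted p = 0.159), and GYG1, the primer of glycogen, had a log2FC of 1.05 (adjusted p = 0.202). The stress kinase MAPK12 stood at 64.5, 61.9 and 109 CPM in DOP 2, DOP 4 and DOP 5 and at 39.5 and 31.3 CPM in DOP 1 and DOP 3 (log2FC 0.91, adjusted p = 0.127). The highest values of all 5 genes were in the libraries highest in muscle transcripts. Of the genes with too few reads to be tested, GPX2 (16, 12 and 189 counts), TNFRSF11B (9, 23 and 109 counts) and ANKRD34A (23, 53 and 306 counts) were also highest in DOP 2, DOP 4 and DOP 5.

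SLIT1, a secreted guidance cue of axons, was scattered over both diets. It stood at 0, 0, 0.573, 3.04 and 0 CPM in C 1 to C 5 and at 0.723, 6.08, 0, 0.0376 and 3.35 CPM in DOP 1 to DOP 5 (log2FC 1.48, SE 1.49, adjusted p = 0.659). Libraries at 0 occurred in both diets, where 0 counts allow up to 3.

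**Figure D5:**
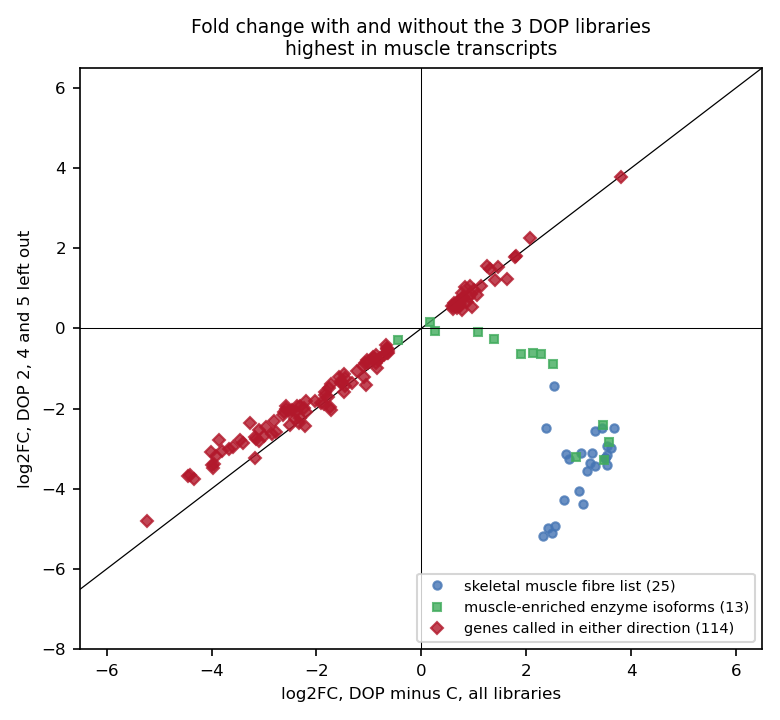
The log2FC (DOP minus C) with all libraries (x axis) against that with DOP 2, DOP 4 and DOP 5 left out (y axis), for the 25 tested muscle fibre genes, 13 muscle-enriched enzyme isoforms and the 114 DEGs. The line marks equal values. The libraries left out were picked as the DOP libraries highest in muscle transcripts, and the muscle fibre genes go from a median of 3.17 to −3.23. All 114 DEGs, which were called with these libraries, keep their direction.

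The 114 DEGs were called with all of these libraries. In 30 of the 32 rises and 58 of the 82 falls the diets did not overlap, so leaving out libraries could hardly turn their direction. None belonged to the muscle list, and without DOP 2, DOP 4 and DOP 5 all 114 kept their direction and an unadjusted p under 0.05, with a median log2FC of 0.81 for the rises and −1.95 for the falls. No gene was a DEG in that fit, in which 3 libraries fewer were available, and 1059 had an unadjusted p under 0.05. With the mean of the muscle list as a covariate, 11 of the 32 rises and 30 of the 82 falls were still called.

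Of 14 tested adipocyte genes none was a DEG, and the median log2FC was 0.09. An unadjusted p under 0.05 was found for 1 with higher values in DOP, against 9.6% of all genes. It was found for 2 with lower values, against 7.98%. ADIPOQ, the insulin-sensitising hormone of adipocytes, stood at 4058, 3094, 3087, 4128 and 4089 CPM in C and at 4432, 5367, 6756, 4890 and 6021 CPM in DOP. The diets did not overlap, and the log2FC of 0.57 (SE 0.17, adjusted p = 0.126) missed both limits. LPL, the lipase that loads adipocytes with fatty acids, had 4542 ± 604 CPM in C and 5058 ± 653 CPM in DOP (log2FC 0.16, adjusted p = 0.677).

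The remaining lists held no DEG, apart from IL13RA2 of the cytokine list given above. ANGPTL4, an inhibitor of LPL in the adipokine list of 13 tested genes, had a log2FC of 0.65 (adjusted p = 0.0944) with no overlap. In the triglyceride list (18 tested, median 0.13) ABHD5, the coactivator of adipocyte lipase, had a log2FC of 0.31 (adjusted p = 0.151). Among 22 antioxidant enzymes (median 0.05) the quinone reductase NQO1 had 0.43 (adjusted p = 0.110) and catalase (CAT) 0.33 (adjusted p = 0.185). The fibroblast list (12 tested, median −0.19), the Schwann cell and nerve list (10 tested, median 0.16) and the collagen and matrix list (26 tested, median −0.09) were near the value of all genes. Of the cytokine list, IL7, a growth factor of lymphocytes, had a log2FC of −1.19 (adjusted p = 0.0633) and the pentraxin PTX3, a soluble pattern receptor, 1.06 (adjusted p = 0.0980). Cell division genes (25 tested) had a median of −0.24, and MKI67, which marks cycling cells, stood at 31.9 ± 2.75 CPM in C and 26.4 ± 2.48 CPM in DOP (adjusted p = 0.195). The 5 tested red blood cell genes summed to 15774 CPM in DOP 2 and to 1790 to 2812 CPM in the controls. The 7 tested epidermis and hair follicle genes summed to 35.1 to 78.0 CPM in C and 32.1 to 57.3 CPM in DOP, with no DEG.

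The other olive diet shares the controls, so its values are only set beside those of DOP. SPP1 stood at 38.8 ± 26.4 CPM in WCOC, between DOP and C, MSR1 at 6.91 ± 5.07 CPM and CYBB at 8.36 ± 3.57 CPM, both near DOP. KIT (13.3 ± 2.88 CPM), KLKB1 (4.21 ± 1.599 CPM) and SLITRK6 (18.8 ± 2.71 CPM) were near DOP as well. For AGTR1 (25.97 ± 3.22 CPM), KCNJ8 (15.03 ± 1.98 CPM), ADAMTS7 (15.3 ± 0.943 CPM), IL13RA2 and PRND the WCOC mean was near that of C, and SQLE stood at 45.5 ± 9.51 CPM.

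The number of DEGs depended on single libraries. Without C 3, C 5, DOP 2 or DOP 4 no gene was a DEG in edgeR (2135 to 2426 genes with an unadjusted p under 0.05), and without C 1 there were 200, while DESeq2 called 507 of 16295 genes (3.11%), 209 higher (1.28%) and 298 lower (1.83%).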

How the data were processed

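RNA of lumbar backfat biopsies from 15 Iberian pigs was sequenced, 5 pigs per diet. The authors aligned the reads to Sscrofa11.1 with HISAT2 and its strand-specific option, and deposited raw counts per Ensembl gene from HTSeq-count, with 1 file per library. Tool versions, the annotation release and the strand setting of the counting are not given in the sources used here, so overlapping antisense genes may share reads. The authors tested the diets with DESeq2. In these files 5 summary lines, which name no gene, were left out, and the 30477 genes were scaled by TMM in edgeR 4.0.16 (limma 3.58.1, R 4.3.3). Of these, 14918 passed filterByExpr by diet, 11955 of them with a gene symbol in the RefSeq gene table. The main test was edgeR's quasi-likelihood test on all 15 libraries, with the contrast DOP minus C and Benjamini-Hochberg adjustment over all tested genes. The log2FC came from this test, and a prior count of 1 was used only for log2 CPM. The C and DOP libraries held 22373715 to 34745218 counts on genes, and p-values measure the spread between pigs of 1 pen per diet.

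Genes were named by a rule: the 10 largest rises and falls among DEGs with a symbol, a mean of at least 1 CPM and no overlap, in each gene list the DEGs (up to 4) or else the gene of lowest p, with the most abundant member, and the genes the study names for this diet. Members and lists were chosen with earlier results of these data known. LIPG, GPNMB, LGALS3, CTSB, HMGCS1, TBXA2R and PDK4 lie outside this rule and were picked after their values were seen. Alternatives were DESeq2 1.42.0, limma-voom, other scalings and filters, covariates, a replicate block and libraries left out. The code was tested on simulated data. Promoters came from RefSeq (Sscrofa11.1), matched by symbol for 88 of the 114 DEGs. Tables were summarised in Python 3.11.15 with pandas 2.3.3 and numpy 2.4.6, and plots were drawn with matplotlib 3.10.9.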

Additional observations from a re-analysis of the deposited data

Results flagged for a closer look

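In 292 groups of 5 libraries, 12 held a library whose gap to the next exceeded 0.71 of the range of its diet, where chance alone gives about 1 in 20. Of these, 10 were in DOP, 5 of them in DOP 5. The low values of DOP 5 were 0 CPM for EIF1AY, KDM5D and the list of X inactivation and Y chromosome genes, and its high ones were 978 CPM summed over the AMPK and PGC-1 list and 8167 CPM over the glycogen list. DOP 2 was high in the red blood cell list (15774 CPM), through its most abundant member (15329 CPM). DOP 3 was low for CPT1C (1.51 CPM) and for CD4 (0.617 CPM), and DOP 4 stood apart in the neutrophil list (25.2 CPM). Among the controls, C 3 was low for KLKB1 (1.15 CPM) and C 4 stood apart for GSN (2510 CPM).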

How the results depend on the processing

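The direction of the 40 DEGs named by the rule was the same in each alternative that tested them, but the number of DEGs was not. These genes were called from the same libraries and part of the rule asks for no overlap, so their direction could hardly turn when libraries were left out. Against 114 (32 higher and 82 lower), DESeq2 called 507 (209 and 298), limma-voom 19 (11 and 8), a fit of C and DOP alone 2 (0 and 2) and fits with a covariate 42 (12 and 30) for the muscle list mean, 16 (4 and 12) for Y-linked counts and 170 (6 and 164) for the run identifier. Without a filter 20 were higher. Leaving out each library in turn gave 0 to 200 DEGs, 0 to 46 higher and 0 to 154 lower, with 0 without C 3, C 5, DOP 2 or DOP 4, 1 without DOP 5, 4 without DOP 3, 46 without C 4 and 200 without C 1. The calls were 0 in edgeR, higher and lower, without DOP 2, DOP 4 and DOP 5 (1059 genes with an unadjusted p under 0.05), without the 5 libraries highest in muscle transcripts (857), without the 3 lacking Y-linked counts (1267) and with a replicate block (1950). Same-numbered libraries correlated at −0.403, −0.355, −0.495, −0.120 and −0.223 in their deviations from the diet means, so the numbers do not pair pigs. The Y-linked covariate and the omissions of 3 or 5 libraries were chosen after seeing the data, and why the counts moved was not tested.

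Some log2FC changed sign, none of a DEG. Without DOP 2, DOP 4 and DOP 5 they were −3.44 (ACTA1), −1.44 (TPM2), 0.23 (S100A12), −3.22 (DES), −0.10 (the most abundant red blood cell gene), −0.95 (AHSP), −0.61 (PPARGC1A), −0.63 (PYGM), −0.42 (GAPDH), −0.89 (PFKM), −0.63 (PRKAA2), −3.20 (PRKAG3), −0.0777 (PRKAB2), −0.30 (GYG1), −1.32 (EGF), −1.08 (SLIT1) and −1.88 (MYBPH). Without the 5 libraries highest in muscle transcripts they were 0.29 (S100A12), −0.64 (AHSP), −0.00693 (STK11), −0.43 (PPARGC1A), −0.0455 (PYGM), −0.11 (GAPDH), −0.10 (PFKM), −0.30 (PRKAA2), −0.69 (PRKAG3), −0.13 (PRKAB2), −0.0645 (GYG1), −0.000857 (IRS1), −0.0623 (EGF), −1.55 (SLIT1) and −0.29 (MYBPH). Without the 3 libraries lacking Y-linked counts they were 0.0226 (S100A12) and −0.0303 (GAPDH). The Y-linked covariate gave −0.0204 (MS4A2) and −0.0558 (SCD), limma-voom 0.0484 (S100A12), −0.0283 (CD4) and −0.00217 (MS4A2), the muscle covariate −0.0158 (ACTA1), 0.0101 (S100A12) and −0.0383 (AGT), the replicate block 0.0590 (S100A12) and the run covariate 0.37 (S100A12), −0.42 (MS4A2), 0.52 (IDI1) and −0.33 (STAB1). With 1 library left out the values ran from −0.20 to 0.31 (AGT), −0.0285 to 0.0891 (CXCL12), −0.0560 to 1.26 (the red blood cell gene), −0.10 to 0.18 (MS4A2), −0.17 to 0.21 (S100A12), −0.0356 to 0.13 (SCD), −0.00828 to 0.25 (STAB1) and −0.0925 to 0.0417 (TNFRSF11A).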
